A study of Mus musculus with 3 samples.

Results

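In the WT library of this whole-genome bisulfite sequencing data set, a small number of CpG sites carried far more calls than the rest of the genome, and these overcovered sites are described here together with the loci they form. The members were selected on their WT depth: autosomal CpG sites with at least 21 calls in WT, outside a satellite stretch at chr2:98660000-98670000, were taken, and sites less than 5 kb apart were joined. The rule gave 1900 CpG sites in 306 loci, of 14132361 autosomal CpG sites listed in WT outside that stretch. Since the WT depth chose the members, it is given as a description and supports nothing.

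Genomes carry families of near-identical sequences, such as satellite arrays at and near the centromeres, the tandem repeats of the ribosomal RNA genes, recently duplicated genes and interspersed retrotransposons. An assembly usually holds only a few copies of such a family, so that reads from copies it lacks can map, apparently uniquely, to the few it has. A methylation level at such a place is then an average over an unknown number of copies rather than the state of 1 position in the genome. In male germ cells, DNA methylation is set anew before birth by the *de novo* methyltransferases with their cofactor *Dnmt3l*, and piRNAs, whose production needs the mitochondrial protein *Pld6*, direct this methylation to a subset of retrotransposons.

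Spermatogonia were sorted with an antibody against EpCAM from C57BL6/J mice at postnatal day 7 (P7), from WT, *Pld6* KO and *Dnmt3l* KO animals, and their DNA was sequenced after bisulfite treatment, which turns unmethylated cytosines into thymines. Only 1 library per genotype was analysed, so no test between genotypes could be made, and what separates the genotypes cannot be told apart from what separates the libraries. The study's methods count mice heterozygous for *Pld6* or *Dnmt3l* as WT, and the labels do not say which kind of mouse gave the WT library. A methylation level is the share of methylated calls among all calls that fell on the member sites of a locus, with a 95% Wilson interval; intervals cover counting error only, and they treat calls of the same read as independent although they are linked. Where 3 values follow each other without a name, they stand for WT, *Pld6* KO and *Dnmt3l* KO in this order.

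Reference sequences show what kinds of sequence were overcovered. They are taken from the plus strand of RefSeq's GRCm38, the assembly named mm10, and the overcovered CpG sites are in capitals except where stated. The first is the deepest locus, chr9:35305240-35305539, an A-rich satellite array in which the same stretch returns with small changes.
Chromosome 9 satellite: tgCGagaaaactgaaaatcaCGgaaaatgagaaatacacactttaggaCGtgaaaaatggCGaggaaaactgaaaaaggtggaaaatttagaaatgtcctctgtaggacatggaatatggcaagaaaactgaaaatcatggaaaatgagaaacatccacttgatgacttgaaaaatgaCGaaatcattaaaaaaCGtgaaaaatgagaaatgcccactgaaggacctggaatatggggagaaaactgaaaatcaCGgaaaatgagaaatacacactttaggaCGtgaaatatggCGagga
The second, chr6:103649040-103649309, is a satellite of another kind. Its capitals mark a CENP-B box, the motif that centromere protein B binds in the satellite of mouse centromeres (TTCG, any 4 bases, A, any 2 bases, CGGG), which lies here on the minus strand.
Chromosome 6 satellite: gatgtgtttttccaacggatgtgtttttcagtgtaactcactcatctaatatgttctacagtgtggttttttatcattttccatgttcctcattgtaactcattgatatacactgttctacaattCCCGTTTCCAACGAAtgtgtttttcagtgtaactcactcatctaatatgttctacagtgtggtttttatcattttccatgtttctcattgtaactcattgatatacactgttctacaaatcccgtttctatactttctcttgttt
The third, chr17:39847841-39847971, is part of the 18S ribosomal RNA pseudogene *Rn18s-rs5* around its deepest site, and the fourth, chr16:57391441-57391670, is a CpG-dense locus in an intron of *Filip1l*. They stand for the loci with low levels in every library.
18S ribosomal RNA: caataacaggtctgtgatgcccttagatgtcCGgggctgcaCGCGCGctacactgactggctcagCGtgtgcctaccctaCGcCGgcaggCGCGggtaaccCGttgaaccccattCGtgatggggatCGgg
*Filip1l* locus: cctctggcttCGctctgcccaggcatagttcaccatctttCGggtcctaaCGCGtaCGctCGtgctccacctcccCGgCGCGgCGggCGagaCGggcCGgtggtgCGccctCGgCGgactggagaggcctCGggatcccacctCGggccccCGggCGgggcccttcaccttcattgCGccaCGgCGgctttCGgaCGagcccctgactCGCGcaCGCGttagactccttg
The fifth, chr15:75086817-75086967, holds the deepest site of a locus near the pseudogene *Gm5960*, and the sixth, chr12:93026093-93026243, is a copy of the interspersed repeat that also borders the excluded chromosome 2 satellite.
*Gm5960* locus: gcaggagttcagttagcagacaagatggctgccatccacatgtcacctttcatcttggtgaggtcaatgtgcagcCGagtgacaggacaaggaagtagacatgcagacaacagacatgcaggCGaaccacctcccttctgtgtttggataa
Edge repeat copy: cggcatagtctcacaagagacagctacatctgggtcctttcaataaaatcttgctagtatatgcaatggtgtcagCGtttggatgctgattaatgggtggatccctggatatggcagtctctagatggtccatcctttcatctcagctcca
The last, chr17:69323326-69323455 and chr12:93317502-93317631, are the loci with the largest differences between WT and *Pld6* KO among those with 20 or more calls in each library, and the second of them matches the retrotransposon L1Md_A.
*Epb41l3* locus: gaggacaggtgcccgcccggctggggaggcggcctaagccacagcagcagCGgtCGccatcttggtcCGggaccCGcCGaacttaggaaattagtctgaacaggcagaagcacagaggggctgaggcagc
*Gm34869* locus: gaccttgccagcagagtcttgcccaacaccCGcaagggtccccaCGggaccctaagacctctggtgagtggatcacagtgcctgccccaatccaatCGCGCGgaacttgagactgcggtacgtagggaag

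The libraries held 42893386 autosomal calls in WT and 62835995 in *Pld6* KO, against 18874945 in *Dnmt3l* KO, with means of 3.04, 3.99 and 1.86 calls per listed site. As a check of the labelled cell type, the start of *Kcnq1ot1*, whose region is unmethylated in male germ cells, had a level of 0.078 in WT and 0.07 in *Pld6* KO, against 0.0154 in *Dnmt3l* KO, over 141, 243 and 65 calls within 500 bases. The start of *Peg3* was at 0.0726, 0.0377 and 0, whereas *Snrpn* had only 2, 7 and 0 calls and could not be read. All 1900 member sites lay at a CG of the reference.

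Of the 306 loci, 153 consisted of a single CpG site and the median number of member sites was 1.5, whereas the ribosomal DNA locus held 514. The deepest site of a locus had a median of 32 WT calls, and the deepest of all, in the chromosome 9 satellite, had 142074. Calls were therefore very unevenly spread: the 5 loci with the most calls held 89.3% of all WT calls at member sites, and 35 loci had more than 100 calls at their deepest site. Just inside the threshold, the 100 sites with exactly 21 WT calls had a pooled level of 0.506 in WT and 0.527 in *Pld6* KO, against 0.173 in *Dnmt3l* KO. Just outside it, the 124 sites with 20 calls had 0.552, 0.567 and 0.163.

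The KO libraries, which the rule did not use, were deep at most of the same places. A minimum scaled to the size of each library was 31 calls for *Pld6* KO and 10 for *Dnmt3l* KO. In *Pld6* KO it was reached by 1482 member sites (78.0%) and by 0.00269% of the other listed autosomal sites. In *Dnmt3l* KO it was reached by 1544 member sites (81.3%) and by 0.0101% of the others. Only 11 member sites in *Pld6* KO and 5 in *Dnmt3l* KO had no call. The member sites took a nearly equal share of the autosomal calls of each library, 1.55% in WT and 1.47% in *Pld6* KO, against 1.39% in *Dnmt3l* KO. The median locus had 9.72 times the mean depth of the library in WT, where the loci were chosen, 7.85 times in *Pld6* KO and 5.9 times in *Dnmt3l* KO, as the plot of depth in the KO libraries against WT shows.

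**Figure D1:**
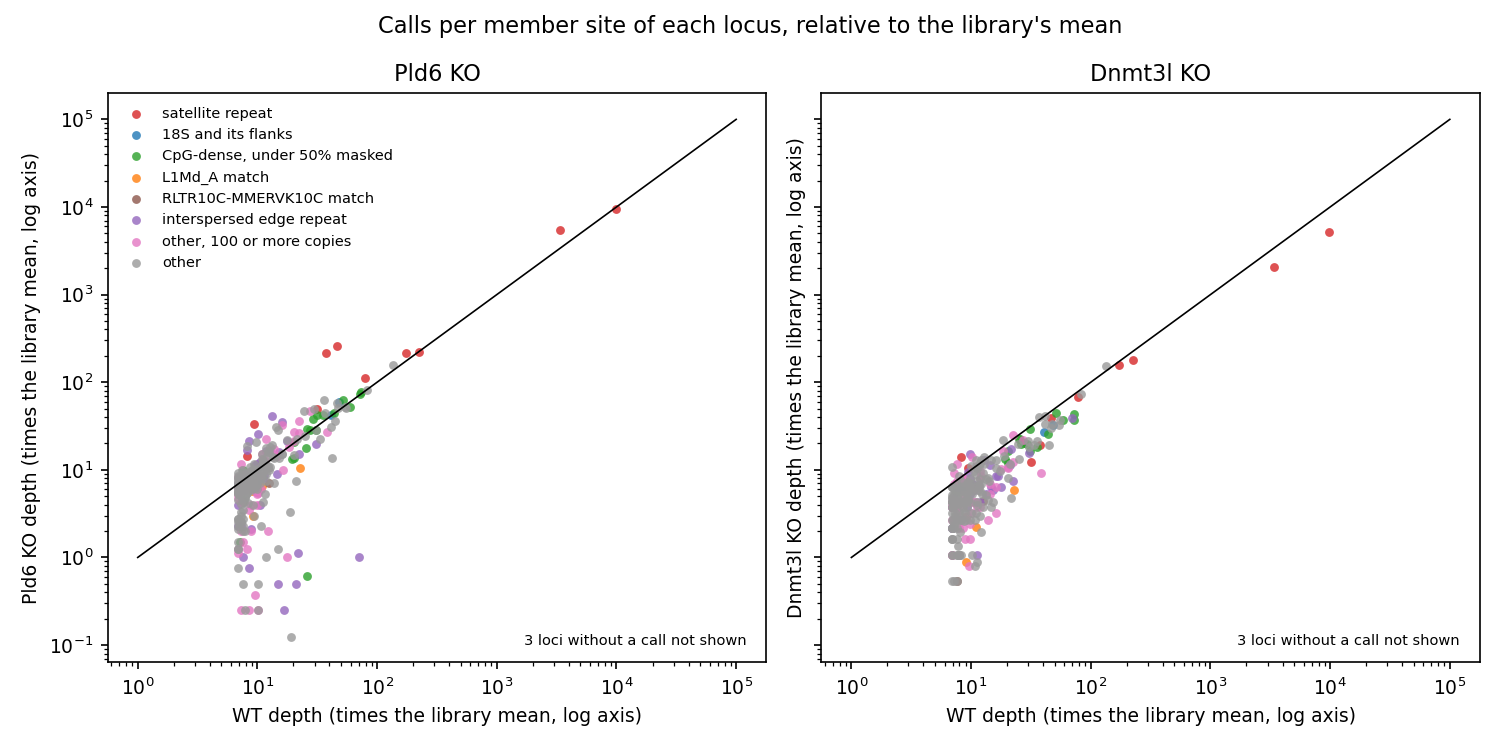
Calls per member site of each locus in *Pld6* KO (left) and *Dnmt3l* KO (right) against WT, each divided by the mean calls per listed autosomal site of its library, on log axes; a point is a locus, colours are sequence classes, and the line marks equal relative depth. Many deep loci lie near the line, 2 satellite loci have 5.63 and 5.71 times the WT value in *Pld6* KO, and many shallow loci lie far below the line.

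At some loci the libraries differed in depth. A relative depth of at most 0.25 of that in WT was found at 37 loci in *Pld6* KO and at 40 in *Dnmt3l* KO. At least 2 times the WT depth was found at 12 loci in *Pld6* KO and at 0 in *Dnmt3l* KO. The following loci were chosen after their depths were seen. The locus near *Gm46595*, chr17:70963789-70963820, with 2 CpG sites, had 115 calls in WT and 54 in *Dnmt3l* KO, but 1 in *Pld6* KO. The edge repeat locus at chr12:93026168, whose sequence is printed above, had 213 calls in WT and 73 in *Dnmt3l* KO, but 4 in *Pld6* KO. In the opposite direction, the satellite loci in an intron of *Ank1*, which encodes an ankyrin, and near *Dpy19l2* had 5.63 and 5.71 times the relative depth of WT in *Pld6* KO and 0.837 and 0.514 times in *Dnmt3l* KO. Because the loci were chosen for high depth in WT alone, lower relative depths in the KO libraries follow in part from the choice, and nothing is read from them; duplicate reads, which the deposited counts do not show, were not tested.

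Set beside windows around other listed sites, the loci held far more repeated sequence and had a similar base composition. In a window of 201 bases around the deepest site, the median share of soft-masked bases, which RefSeq marks as repeats, was 67.2% at the 306 loci and 10.4% at 1414 other windows. At least 50% of the stretches of 31 bases occurred again in the assembly at 67.6% of loci and 7.0% of the other windows, and none did at 9.48% against 77.7%. Windows whose median stretch had 100 or more copies made up 30.4% of loci against 2.05%. The GC content was similar, with medians of 45.8% and 47.3%. So was the share of windows with at least 50 CpG sites per kb, masked or not, at 9.48% and 8.91%. A CENP-B box was present in 2 locus windows and in 0 of the 1414 others. Neither had 4 tandem copies of the telomere motif TTAGGG, and 0 loci matched the mitochondrial genome. No locus matched the short annotated piece of 28S ribosomal RNA, *Rn28s1*, but the rest of the 28S sequence was not searched. Searches with the amplicons of the retrotransposons listed by the study matched L1Md_A at 4 loci, RLTR10C-MMERVK10C at 2 and the others at 0. Full retrotransposon sequences and other families were not searched, so a locus without a match can still be a retrotransposon.

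The loci lay on all 19 autosomes. Chromosomes 4, 5 and 1 held the most, with 43, 36 and 25 loci, and 26 loci were within the first 5 Mb of a chromosome, which in the mouse is next to the centromere, with 23.6% of the WT calls. The deepest site lay between RefSeq genes at 164 loci, in an intron at 108, in an exon at 21 and within 1 kb of a gene start at 13. When the loci were compared with each other, 122 fell into 25 groups chained by shared matches, the largest with 55 loci. A match needed to cover only most of the shorter locus, so a short repeat copy could join a long locus that holds one. The largest group thus includes chr1:88223805-88305191, of 81387 bases, and its members are not all alike in sequence. Clusters of at least 5 loci, each less than 1 Mb from the next, numbered 7 and held 76 loci.

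Over all 1900 member sites, the pooled level was 0.304 (95% interval 0.303 to 0.305) in WT and 0.33 (0.329 to 0.331) in *Pld6* KO, against 0.108 (0.107 to 0.109) in *Dnmt3l* KO. At the autosomal sites that are no members, the levels were 0.727, 0.744 and 0.313, so the overcovered sites were less methylated than the rest of the genome in each library. The pooled values are those of the few deepest loci. Without the 10 loci with the most WT calls, WT was at 0.308, *Pld6* KO at 0.309 and *Dnmt3l* KO at 0.0871. With each locus counted once, the medians were 0.556 in WT and 0.51 in *Pld6* KO, against 0.0976 in *Dnmt3l* KO. The level was lower at deeper loci: it was 0.539 in WT at the 142 loci with 21 to 30 calls at their deepest site, 0.479 at the 129 with 31 to 100, and 0.297 at the 35 with more. Between WT and *Pld6* KO, 141 loci were lower and 156 higher in *Pld6* KO, whereas 276 were lower and 17 higher in *Dnmt3l* KO. These and the later counts of loci by direction alone set no minimum of calls, and some loci had 1 call in a KO library. The matching shares in the rest of the genome were not counted. Outside the members, the pooled level of WT minus KO was -0.0164 for *Pld6* KO and 0.414 for *Dnmt3l* KO.

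To set single loci against the genome, those that reached 20 calls in each library were compared with tiles of 5 kb that hold no member site and have the same minimum. A level at least 0.3 lower than in WT was found in *Pld6* KO at 3 of 121 loci (2.48%) and at 1.27% of 324312 tiles. Among the loci and tiles with a WT level of at least 0.3, it was found at 3 of 79 loci (3.8%) and 1.34% of tiles. A level at least 0.3 higher in *Pld6* KO was found at 0 loci and at 0.169% of tiles. Since the minimum also held for the shallower *Dnmt3l* KO library, these counts left out loci with 20 or more calls in both WT and *Pld6* KO. Examples in each direction, chosen after their values were seen, are chr5:15671018 and chr4:146915866. The former was at 1.0 in WT and 0.0 in *Pld6* KO over 23 and 24 calls. The latter was at 0.476 and 0.818 over 21 and 22 calls. In *Dnmt3l* KO, 57 loci (47.1%) were lower by at least 0.3, against 80.4% of tiles. Where WT was at 0.3 or above, these were 57 of 79 loci (72.2%) against 84.9% of tiles. The WT levels of the loci were themselves low, with a median of 0.455 among the 121 against 0.871 in the tiles. In neither kind was any level at least 0.3 higher in *Dnmt3l* KO (0 loci and 0% of tiles).

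**Figure D2:**
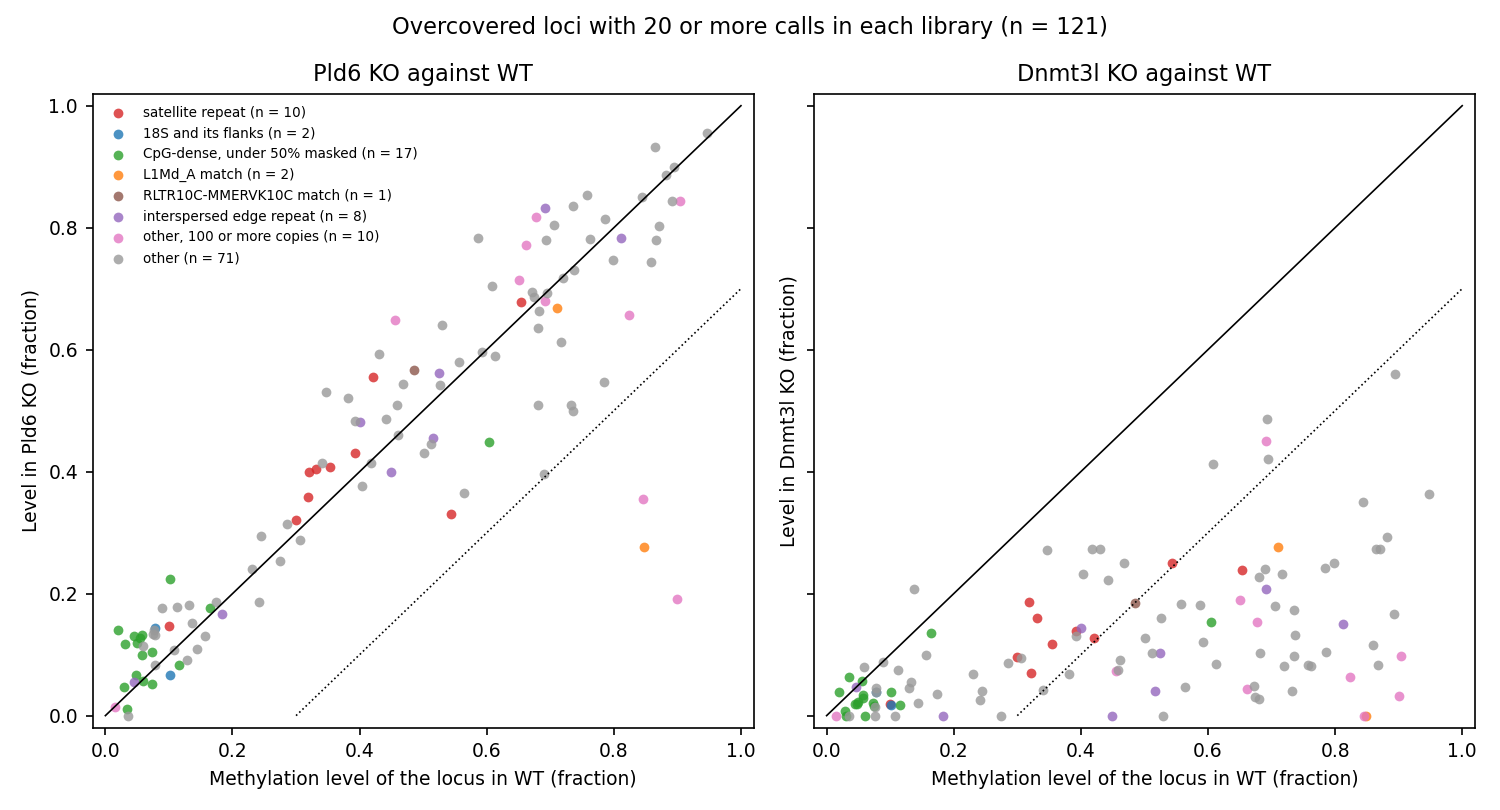
Methylation level of each overcovered locus with 20 or more calls in each library (n = 121) in *Pld6* KO (left) and *Dnmt3l* KO (right) against WT; colours are sequence classes, the solid line marks equal levels and the dotted line a level 0.3 lower than in WT. Most loci lie near the solid line in *Pld6* KO, where 3 lie beyond the dotted one, and nearly all lie below the solid line in *Dnmt3l* KO, where 57 lie beyond the dotted one.

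The satellite class consisted of 10 loci whose match to the excluded chromosome 2 stretch was centred between its first and last tandem bases. This span also holds bases that are not marked as tandem, and the class mixes satellites of more than 1 kind. It held 302 member sites and 78.2% of the WT calls at member sites. Its pooled level was 0.33 (0.329 to 0.332) in WT and 0.361 (0.36 to 0.362) in *Pld6* KO, against 0.12 (0.119 to 0.122) in *Dnmt3l* KO. The level was higher in *Pld6* KO than in WT at 9 of the 10 loci and lower in *Dnmt3l* KO at 10 of 10. The excluded stretch itself, with 87 sites and 2113750 WT calls, was at 0.391, 0.43 and 0.146, so that the pooled class had the same order of genotypes at slightly lower levels. Without the deepest locus the class was at 0.372, 0.407 and 0.142.

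The deepest locus, chr9:35305242-35305582 in an intron of the noncoding RNA gene *Gm33838*, had 299778 calls in WT, at 9877 times the mean depth. Its level was 0.3 (0.299 to 0.302) in WT and 0.32 (0.318 to 0.321) in *Pld6* KO, against 0.0968 (0.095 to 0.0987) in *Dnmt3l* KO. Nearly all calls came from a pair of CpG sites 16 bases apart that differed strongly from each other. The site at 35305418 had 0.4, 0.426 and 0.166 over 133481 WT calls, and the site at 35305434 had 0.188, 0.188 and 0.0232 over 142074. The 7 sites around this pair with 1945 to 7455 WT calls were between 0.367 and 0.451 in WT, so the low site stood alone among the well covered ones. In the printed sequence these are the CpG sites of the middle part, before and after a run of A. Copies that carry TG at such a site would be read as unmethylated, and their share was not tested.

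A second large array, at chr9:3000031-3038256 near the first base of the assembled chromosome, had 204 member sites and 139261 WT calls. It was at 0.393 (0.39 to 0.395) in WT and 0.43 (0.428 to 0.433) in *Pld6* KO, against 0.138 (0.136 to 0.141) in *Dnmt3l* KO. Of its 160 sites that reached 20 calls in each library, 111 were higher and 49 lower in *Pld6* KO, and 160 were lower in *Dnmt3l* KO. The array at chr14:19415740-19419615 had 0.354, 0.408 and 0.118, with 53 of 60 sites higher in *Pld6* KO and 60 lower in *Dnmt3l* KO. Most sites of both arrays therefore shared the direction in these libraries. Neighbouring sites can share reads, and sites of an array can be copies of the same position in its repeated unit. The site counts for both arrays, and those for the loci below, are therefore not counts of independent replicates. These arrays and the deepest locus matched themselves best at a shift of 234 bases, with 71.2%, 55% and 58.6% identical bases.

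The locus with the printed CENP-B box, chr6:103649055-103649287 in an intron of *Chl1*, a neural cell adhesion gene, matched itself best at a shift of 121 bases, with 44.2% identical bases. It had 41290 WT calls and a level of 0.319 (0.314 to 0.323) in WT and 0.358 (0.355 to 0.361) in *Pld6* KO, against 0.187 (0.181 to 0.194) in *Dnmt3l* KO. This was the highest *Dnmt3l* KO level among the 5 loci with the most calls. A pair of its 4 sites held almost all calls. At 103649176, the level was 0.315, 0.33 and 0.182. At 103649287, it was 0.336, 0.381 and 0.207, with 9681 calls in WT but 48735 in *Pld6* KO, so the extra depth in *Pld6* KO lay at this site. The other locus with a CENP-B box, a single CpG at chr9:24542091 near *Dpy19l2*, was the only satellite locus with a lower level in *Pld6* KO. Its levels were 0.544 (0.452 to 0.632), 0.33 (0.299 to 0.362) and 0.25 (0.138 to 0.411), over 114, 855 and 36 calls.

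The remaining satellite loci were smaller. Their WT levels ran from 0.1 at chr16:10975091-10975133 in an intron of *Litaf* to 0.654 at chr12:67059420-67059478 in an intron of *Mdga2*. The locus at chr12:3109883-3110099, also close to the start of its chromosome, had 0.331 in WT and 0.404 in *Pld6* KO, against 0.16 in *Dnmt3l* KO, and the *Ank1* locus at chr8:23095627-23095669 had 0.321, 0.4 and 0.0694. At chr4:70378180-70378198 in an intron of *Cdk5rap2*, the levels were 0.421, 0.555 and 0.128 over 57, 263 and 39 calls, and the intervals of WT and *Pld6* KO overlapped.

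**Figure D3:**
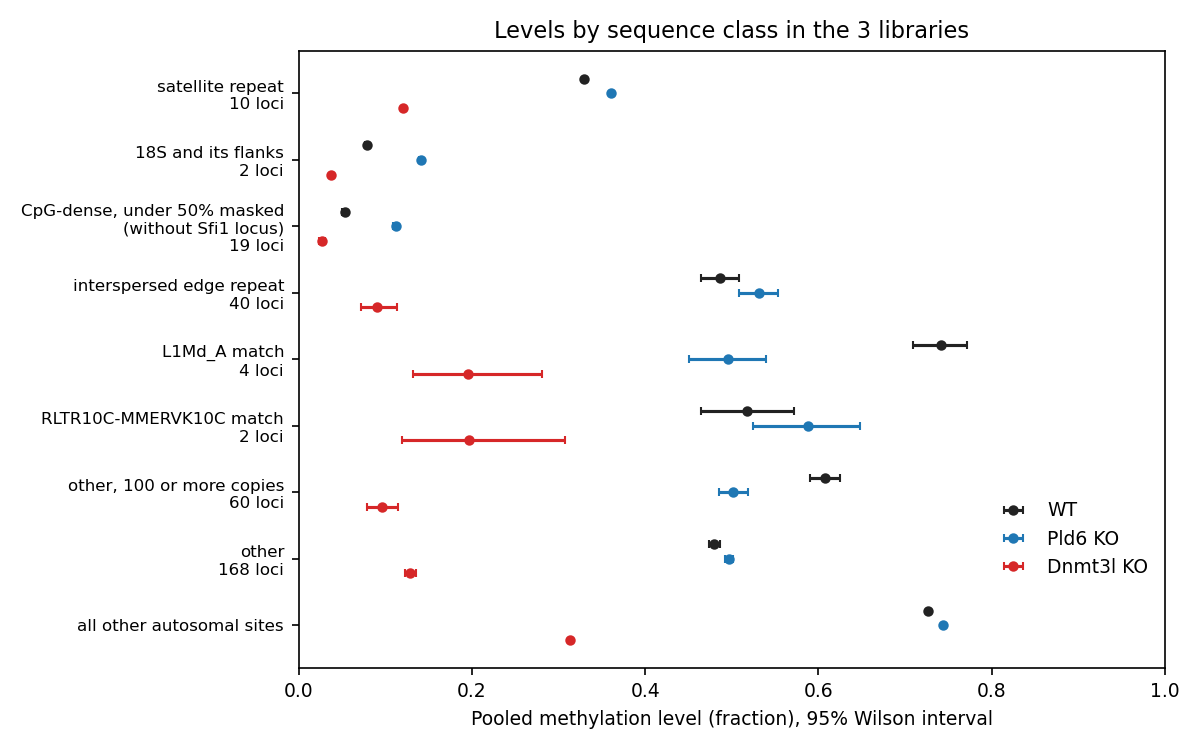
Pooled methylation level of each sequence class in WT (black), *Pld6* KO (blue) and *Dnmt3l* KO (red), with 95% Wilson intervals that cover counting error only; where no bar shows, the interval is narrower than the point. *Dnmt3l* KO is lowest in every class, L1Md_A matches are at 0.742 in WT and 0.496 in *Pld6* KO, and the 18S class and the CpG-dense class, drawn without the *Sfi1* locus, are at most at 0.141 in any library.

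The ribosomal DNA locus, chr17:39843001-39848799, covers the 18S pseudogene *Rn18s-rs5* (39846354 to 39848202, plus strand) and its flanks. Ribosomal DNA forms long tandem arrays that RNA polymerase I transcribes. The locus had 75649 calls over 514 sites in WT, and a level of 0.0783 (0.0764 to 0.0803) in WT and 0.143 (0.141 to 0.145) in *Pld6* KO, against 0.0383 (0.0363 to 0.0405) in *Dnmt3l* KO. The difference, WT minus *Pld6* KO, was -0.0646 (95% Newcombe interval -0.0674 to -0.0619). Of 440 sites that reached 20 calls in each library, 410 were higher in *Pld6* KO, and 344 were below 0.1 in WT. The higher level in *Pld6* KO was thus spread over the locus in these libraries, although its sites are linked and are not replicates.

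The difference was not even along it. Before the 18S sequence, the level was 0.0659 in WT and 0.143 in *Pld6* KO, against 0.0375 in *Dnmt3l* KO. Within the 18S sequence it was 0.125, 0.148 and 0.0456, and after it 0.0466, 0.137 and 0.0307. WT and *Pld6* KO therefore differed more in the flanks (-0.0768 and -0.0901) than in the 18S sequence (-0.0224), and WT was higher within that sequence than beside it. A second 18S-like locus, chr6:3201422-3201557, 96.7% identical over 336 bases to a stretch inside the 18S sequence (chr17:39847233-39847568), went the other way, with 0.102 (0.0894 to 0.117) in WT and 0.066 (0.057 to 0.0764) in *Pld6* KO, against 0.0172 (0.0101 to 0.0293) in *Dnmt3l* KO.

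**Figure D4:**
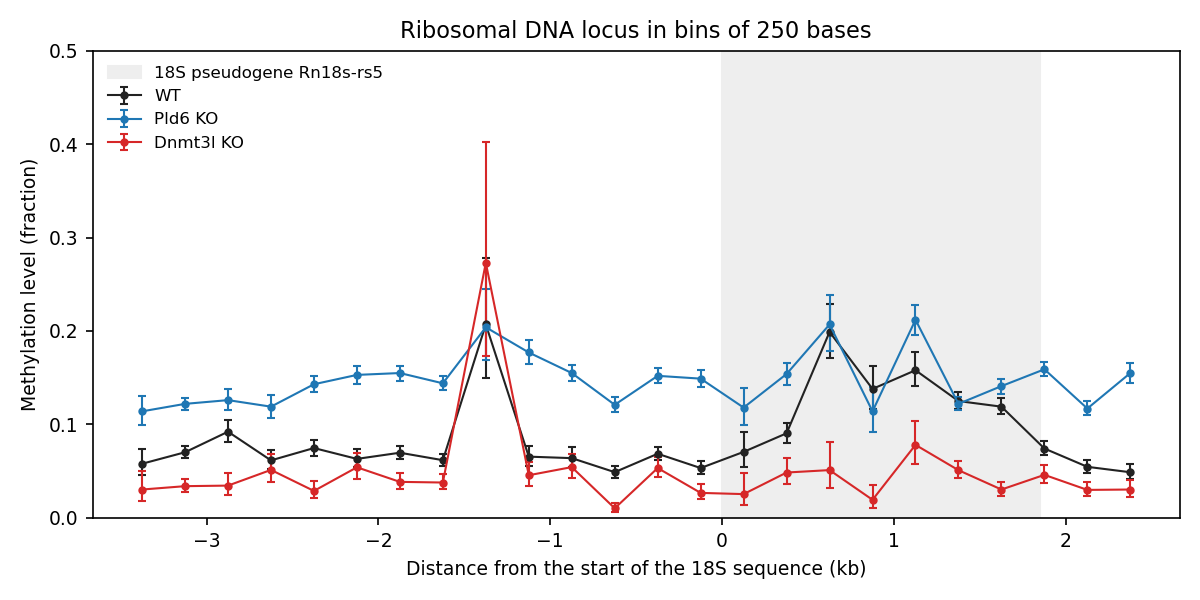
Methylation level along the ribosomal DNA locus in bins of 250 bases, against the distance from the start of the 18S sequence (grey band), with 95% Wilson intervals, in WT (black), *Pld6* KO (blue) and *Dnmt3l* KO (red). *Pld6* KO lies above WT in the bins of both flanks except at the peak before the 18S start, which rests on 6 sites and 150 WT calls and where the levels are 0.207 in WT and 0.204 in *Pld6* KO; within the band both libraries lie close together in several bins.

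A further 20 loci were CpG-dense and less than 50% masked around their deepest site, with a median of 74.6 CpG sites per kb, like the printed *Filip1l* locus. Whether they match ribosomal RNA outside the 18S locus and the *Rn28s1* piece was not tested. All 20 together had a pooled level of 0.223 in WT and 0.214 in *Pld6* KO, against 0.0704 in *Dnmt3l* KO. Apart from the *Sfi1* locus described below, the other 19 had a pooled level of 0.0533 (0.0506 to 0.0562) in WT and 0.112 (0.109 to 0.115) in *Pld6* KO, against 0.0265 (0.0235 to 0.03) in *Dnmt3l* KO. The order of WT and *Pld6* KO thus depended on that locus. In *Pld6* KO, 14 of them were higher and 4 lower than in WT, and in *Dnmt3l* KO 14 were lower and 4 higher. All levels in WT were at most 0.165, the level of the locus near *Rimbp3*.

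*Filip1l*, which encodes a relative of a filamin-interacting protein, gave the deepest of them, with 29 member sites and 6328 calls in WT. The level was 0.0444 (0.0396 to 0.0498) in WT and 0.131 (0.124 to 0.138) in *Pld6* KO, against 0.0188 (0.014 to 0.0252) in *Dnmt3l* KO, and 29 of 29 sites were higher in *Pld6* KO. The locus in an intron of *Zc3h7a*, a zinc finger gene, was similar: 0.0497, 0.119 and 0.0216, with 25 of 25 sites higher in *Pld6* KO. The locus at chr3:5860619-5860764, far from any gene, had 0.058, 0.0987 and 0.0343. In each of these 3 loci, the WT and *Pld6* KO intervals of the pooled level did not overlap, but they count linked calls of neighbouring sites as independent. At each single site of the chromosome 3 locus, the intervals of WT and *Pld6* KO did overlap.

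The *Lars2* and *Gm30821* loci, with fewer calls, differed more between WT and *Pld6* KO. The locus in an exon of *Lars2*, the mitochondrial leucyl-tRNA synthetase gene, had 0.101 (0.0808 to 0.126) in WT and 0.224 (0.193 to 0.26) in *Pld6* KO, against 0.0382 in *Dnmt3l* KO. The locus at chr18:68692098-68692161 in the noncoding RNA gene *Gm30821* had 0.02 (0.0121 to 0.0327), 0.14 (0.119 to 0.164) and 0.0393 (0.0247 to 0.062). In the intron of *Cdk8*, a kinase gene of the Mediator complex, the locus had 0.0551, 0.128 and 0.0575. At *Cdk8* and *Gm30821* the *Dnmt3l* KO level was not below that of WT, and the intervals of the differences, WT minus *Dnmt3l* KO, were -0.025 to 0.0165 and -0.0433 to 8e-05.

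The *Sfi1* region on chromosome 11 differed from the rest of the class. *Sfi1* encodes a centrosomal protein and has near-copies in the mouse genome. Its deepest locus, chr11:3180959-3199924, had 129 member sites and 10768 WT calls, the deepest of them in an exon, and its level was 0.604 (0.595 to 0.613) in WT and 0.448 (0.44 to 0.456) in *Pld6* KO, against 0.154 (0.145 to 0.165) in *Dnmt3l* KO. Of 100 sites that reached 20 calls in each library, 94 were lower in *Pld6* KO. The difference, WT minus *Pld6* KO, was 0.156 (0.144 to 0.168), and it was largest between 11 and 12 kb from the first site (0.646, 0.278 and 0.0964) and between 12 and 13 kb, where 48 of the sites lie (0.695, 0.474 and 0.195). Elsewhere the libraries were closer, as between 5 and 6 kb, with 0.623 in WT and 0.613 in *Pld6* KO.

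**Figure D5:**
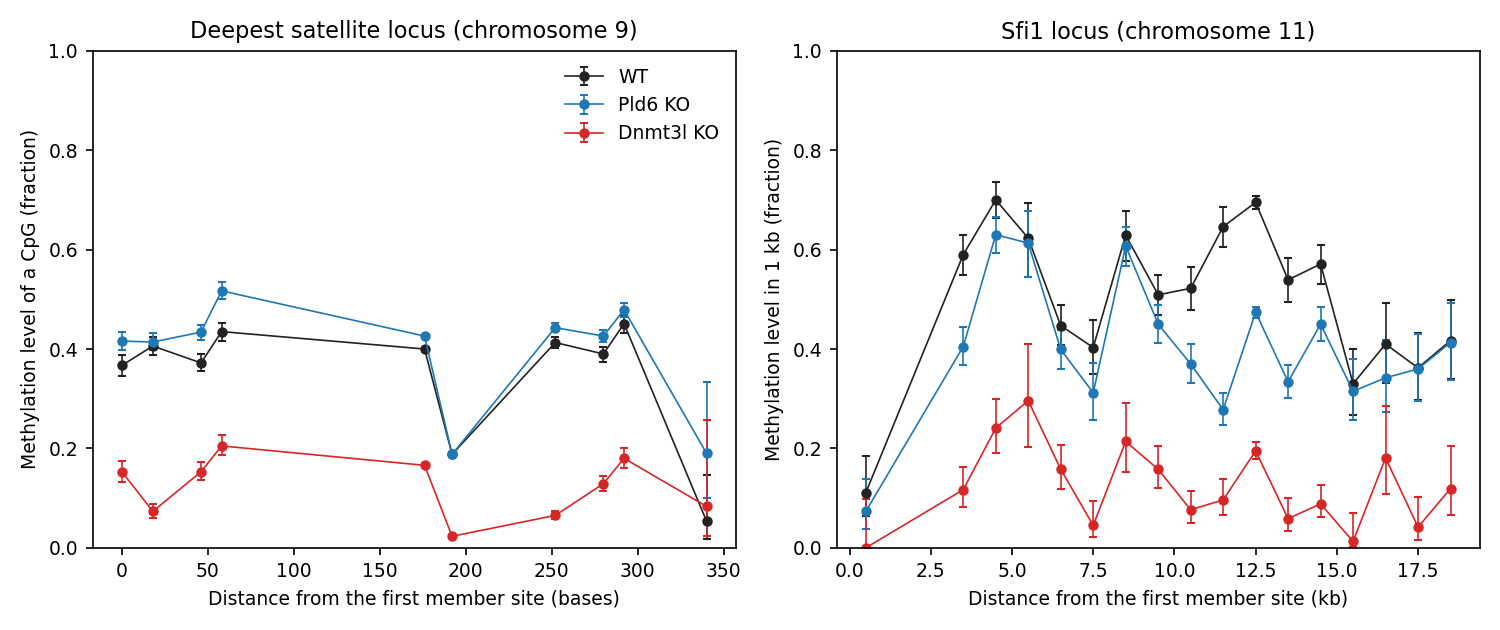
Left, the methylation level of each member CpG of the deepest satellite locus against its distance from the first one; right, the level of the *Sfi1* locus in bins of 1 kb; points have 95% Wilson intervals, in WT (black), *Pld6* KO (blue) and *Dnmt3l* KO (red). At the satellite, the site 192 bases from the first is low in each library; at *Sfi1*, *Pld6* KO lies farthest below WT at 11 to 13 kb.

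The neighbouring loci did not share 1 direction. The locus at chr11:3137464-3142656, in an intron of *Sfi1*, was at 0.784 (0.724 to 0.834) in WT and 0.547 (0.486 to 0.606) in *Pld6* KO, against 0.242 in *Dnmt3l* KO. At chr11:3158627-3174118 the levels were 0.501, 0.431 and 0.128. In contrast, chr11:3150204-3150600, at the start of the pseudogene *Gm11400*, was at 0.347 (0.294 to 0.404) in WT and higher in *Pld6* KO, at 0.531 (0.481 to 0.58), with 0.272 in *Dnmt3l* KO, and chr11:3127214 in *Pisd-ps1* had 0.526, 0.542 and 0.16. Over the 6 loci of the region, 3 were lower and 3 higher in *Pld6* KO.

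Other clusters held duplicated gene families. On chromosome 4, 24 loci between 145403581 and 147527087, near zinc finger genes such as *Zfp600*, had a pooled level of 0.722 (0.7 to 0.742) in WT and 0.72 (0.699 to 0.739) in *Pld6* KO, against 0.318 (0.282 to 0.355) in *Dnmt3l* KO, which are close to the genome's values. On chromosome 5, 22 loci between 14904046 and 15694134, near *Speer* genes, had 0.48 (0.457 to 0.502), 0.494 (0.472 to 0.516) and 0.164 (0.129 to 0.206), and at 21 of them at least 50% of the stretches of 31 bases were repeated. On chromosome 8, 9 loci between 19702509 and 20627388 had 0.812 (0.769 to 0.849), 0.662 (0.611 to 0.71) and 0.0958 (0.0598 to 0.15), and 8 of the 9 were lower in *Pld6* KO. The clusters were named after their values were seen.

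Single loci with many calls had levels that also varied widely. The locus near *Gm5960*, whose deepest site is in the printed sequence, had 4099 calls in WT and was at 0.682 (0.668 to 0.696), 0.664 (0.653 to 0.676) and 0.103 (0.0919 to 0.114). The locus at chr1:88223805-88305191, which reaches *Hjurp*, the gene of the chaperone that loads the centromeric histone, had 132 sites and 0.557, 0.58 and 0.183. The locus at chr10:58223978-58239574 had 0.245, 0.295 and 0.0412, with 16 of 18 sites higher in *Pld6* KO. At these loci the WT and *Pld6* KO levels lay within 0.0498 of each other, while *Dnmt3l* KO was lower at each by at least 0.204. The locus at chr6:47653094-47653102 lay in the protein-coding gene *Gm40369*, near the 4.5S RNA gene *Rn4.5s*. It had 0.529 in WT and 0.64 in *Pld6* KO, against 0 in *Dnmt3l* KO. There, 39 calls allow up to 0.0897 by the Wilson bound.

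The largest decrease in *Pld6* KO among the 121 loci with 20 or more calls in each library was at chr17:69323376-69323403, in a fully masked sequence with a median of 1101 copies of its stretches of 31 bases, 33412 bases from *Epb41l3*, which encodes a protein of the membrane skeleton. This locus matched none of the searched amplicons, and whether it belongs to another LINE-1 or retrotransposon family was not tested. Over 281, 360 and 154 calls, the level was 0.9 (0.86 to 0.93) in WT and 0.192 (0.154 to 0.235) in *Pld6* KO, against 0.0325 (0.0139 to 0.0737) in *Dnmt3l* KO. The difference, WT minus *Pld6* KO, was 0.709 (0.649 to 0.756). Among the loci with 20 or more calls in each library, the others lower by at least 0.3, named after their values were seen, were chr12:93317532-93317602 and chr5:109160675-109160764 in an intron of *Vmn2r13*, a vomeronasal receptor gene. The first was at 0.848 (0.786 to 0.895), 0.277 (0.207 to 0.359) and 0 (0 to 0.155), and the second at 0.846 (0.775 to 0.897), 0.355 (0.28 to 0.438) and 0 (0 to 0.0507). At these 3 loci the WT and *Pld6* KO intervals were far apart, and at the latter pair no methylated call was present in *Dnmt3l* KO.

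The first of these matches L1Md_A, a young LINE-1 family. The 4 loci with such a match, over 747 WT calls, had a pooled level of 0.742 (0.709 to 0.772) in WT and 0.496 (0.451 to 0.54) in *Pld6* KO, against 0.196 (0.132 to 0.281) in *Dnmt3l* KO, and 4 of 4 were lower in *Pld6* KO. They were not alike: the locus in an intron of *Atg7*, an autophagy gene, had 0.71 (0.665 to 0.751) in WT and 0.669 (0.609 to 0.725) in *Pld6* KO, whereas that in an intron of *Pkhd1* had 0.699 (0.593 to 0.787) and 0.306 (0.18 to 0.469). The 2 loci matching RLTR10C-MMERVK10C, which is an LTR retrotransposon, had 0.518 (0.464 to 0.572) in WT and 0.588 (0.525 to 0.648) in *Pld6* KO, against 0.197 (0.119 to 0.308) in *Dnmt3l* KO, so there the WT and *Pld6* KO intervals overlapped. Of their 330 WT calls, 307 came from chr5:15679093-15694134, a locus of 15042 bases in the *Speer* cluster above. Its match spans only 135 bases, so these levels are mostly not those of the retrotransposon.

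The remaining interspersed repeats fell into a pair of classes. The 40 edge repeat loci, 51 sites in all, had 0.486 (0.464 to 0.508) in WT and 0.531 (0.509 to 0.554) in *Pld6* KO, against 0.0903 (0.0717 to 0.113) in *Dnmt3l* KO, with 21 loci lower and 18 higher in *Pld6* KO. The 60 other loci with 100 or more copies had 0.608 (0.59 to 0.625), 0.502 (0.485 to 0.519) and 0.0959 (0.0794 to 0.115), with 31 lower and 26 higher in *Pld6* KO. The *Epb41l3* and *Vmn2r13* loci belong to this class, in which loci above WT were nearly as many as those below it. The 168 loci in no other class had 0.48, 0.497 and 0.129.

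Where the *Dnmt3l* KO level was least below WT, among loci that reached 100 calls in each library, WT was itself nearly unmethylated. Besides *Gm30821* and *Cdk8*, these were chr1:195241714-195241783 (0.0346 in WT and 0.0101 in *Pld6* KO, against 0.0636 in *Dnmt3l* KO), a locus in an intron of *Gphn*, the gephyrin gene of inhibitory synapses (0.0586, 0.114 and 0.0804), and chr19:61266799-61266868 (0.0291, 0.0468 and 0.00787). The largest decreases in *Dnmt3l* KO were at loci that were highly methylated in WT. After the *Epb41l3* locus came chr18:3004868-3005841 near *Vmn1r-ps151*, at 0.786, 0.814 and 0.104, and chr10:22142545-22142774 in an intron of *E030030I06Rik*, at 0.871, 0.803 and 0.273.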

How the data were processed

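From trimmed reads that Bismark placed uniquely on mm10, the authors deposited 2 counts per CpG site, methylated calls and unmethylated calls. A further column gives the level as a fraction, also computed by the authors. Libraries were single-end and prepared by post-bisulfite adaptor tagging. No removal of duplicate reads is stated in the sources used here. At each listed site this fraction was the methylated count over the sum of both.

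The members and lists were chosen with earlier results of these data known, and the sequence classes were defined after the data were seen. Levels were pooled over member sites, with 95% Wilson intervals, and differences had Newcombe intervals. Both were tested on simulated data with independent calls and 1 level per locus. That test therefore does not cover linked calls or sites of a locus that differ in level. No test between genotypes was made, with 1 library each. Depth was 21 calls or more per site by choice in WT and was given per library for the KO data.

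Positions and sequences came from RefSeq's GRCm38 (pysam 0.24.0, pandas 2.3.3, numpy 2.4.6, matplotlib 3.10.9 and Python 3.11.15). Classes were made in a window of 201 bases around the deepest site or from BLAST+ 2.17.0 matches of at least 80% identity over 50 bases that hold a member site, 100 bases for the chromosome 2 stretch. Its tandem bases were set by at least 5 overlapping matches of the array at the start of chromosome 9. A match counted as satellite if its middle lay between the first and last of these bases, and as edge repeat elsewhere in the stretch. CpG-dense windows had at least 50 CpG sites per kb and less than 50% masked bases. High copy windows had a median of 100 or more copies per 31-mer. Loci were grouped at 90% identity over 80% of the shorter, and groups were chained through shared matches. Motifs were searched on both strands.

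The loci named were the 12 with the most WT calls; among loci with 100 calls in each library, the 5 largest decreases and increases in *Pld6* KO and the 5 smallest and 3 largest decreases in *Dnmt3l* KO; loci within 5 kb of *Sfi1*, *Hjurp*, other listed multicopy genes or ribosomal RNA genes; and every locus with a CENP-B box, 18S or satellite match. Others were named after their values were seen, as stated beside them. Alternatives changed the minimum of WT calls, the joining distance, the sites pooled, the minimum of calls per locus and the size of a decrease.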

Additional observations from a re-analysis of the deposited data

How the results depend on the processing

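The pooled WT level, 0.304, was 0.3 with at least 31 WT calls per site, 0.298 with 51, 0.324 as the mean of single sites, 0.31 with all listed sites in the spans and 0.308 without the 10 loci with the most WT calls. For *Pld6* KO, 0.33 became 0.328, 0.327, 0.339, 0.336 and 0.309 in the same order, so that its excess over WT nearly vanished without the 10 deepest loci. For *Dnmt3l* KO, 0.108 stayed at 0.107 with both call minimums and became 0.103 as a mean of sites, 0.11 in the spans and 0.0871 without the 10 loci. The count of loci lower by at least 0.3 in *Pld6* KO, 3, was 1 with a minimum of 31 or of 51 calls, 5 with sites joined below 1 kb, 4 over the spans, 2 with 50 calls in each library and 8 for a decrease of at least 0.2. It therefore rests on few loci. For *Dnmt3l* KO, 57 became 19 with 51 calls (of 60 loci) and 25 with 50 calls in each library (of 69 loci), and lay between 40 and 75 under the other alternatives. The number of loci, 306, was 172 with 31 calls, 78 with 51 calls and 405 with joining below 1 kb.

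Depth limits the shallow loci most: with few calls in *Dnmt3l* KO, many intervals there are wide. No paired analysis was possible because each genotype has 1 library. Leaving out a library was not possible for the same reason. Levels at collapsed copies average an unknown number of copies, and mutated CpG sites among them read as unmethylated, which was not tested.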
